A study of Canis lupus familiaris with 8 samples.

Results

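Oxidative phosphorylation was described here through 81 genes of the 20257 listed for single-cell libraries of canine blood T cells. The genes were chosen by symbol: names beginning with NDUF, UQCR, ATP5, COX4, COX5, COX6, COX7, COX8 or MT-, together with the succinate dehydrogenase genes (SDHA to SDHD and their SDHAF assembly factors) and ND4L. Of these, 68 are encoded in the nucleus and 13 are the protein genes of mitochondrial DNA, of which ND4L is listed without the MT- prefix. The rule reads names and no measured value, and it was set with earlier results of these data known.

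The respiratory chain in the inner mitochondrial membrane passes electrons from NADH through complex I, or from succinate through complex II, to complex III, cytochrome c and complex IV, and the proton gradient built on the way drives ATP synthase, complex V. Complexes I, III, IV and V are built from proteins of both genomes, whereas complex II is encoded in the nucleus alone. Resting T cells are known to rely on oxidative phosphorylation, and activated, dividing T cells to raise both glycolysis and mitochondrial biogenesis.

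The cells came from peripheral blood of 4 healthy Beagle dogs, 3 male and 1 female, aged 5, 7, 7 and 9 years. All had received routine vaccinations, and no experimental treatment was described. Each dog gave 1 gene expression library of sorted, cryopreserved TCRαβ+ cells from the lymphocyte gate. The libraries were prepared with a 5′ droplet kit that tags each captured molecule with a unique molecular identifier (UMI). A cell was kept when it held 500 to 20000 UMIs and the 13 mitochondrial genes made up no more than 10% of them, which left 7096, 8454, 8109 and 8250 cells of dogs 1 to 4. The dogs were not divided into treatment or disease groups, so the comparisons were between classes of cells of the same dogs: cells with CD4 but no CD8A UMI against cells with CD8A but no CD4 UMI (single-positive, sp), cells with and without a UMI of CCR7, GZMB or MKI67, and cells of 6000 or more UMIs against cells of 2000 to 4000 UMIs. The dog was the replicate (n = 4) throughout. A class defined by a UMI of 1 gene is a detection class: cells without the UMI can still express the gene, and deeper cells are more likely to be positive.

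The libraries of dogs 1 to 4 held 26904346, 35661623, 32637367 and 32773374 UMIs, and the kept cells had a median of 3599 to 3931.5 UMIs. Any pair of libraries shared 81 to 113 cell barcodes, 1.14 to 1.39% of the smaller library. Of 6 listed T cell markers 5 had a row, and all 5 were detected. They summed to 2783 to 3067 UMIs per 1000000 UMIs of the library (CPM). The 6 B cell markers summed to 6.22 to 7.17 CPM, with CD22 and PAX5 at 0. Only 2 of 4 platelet markers had a row, with a sum of 0.40 to 2.99 CPM. Of 3 erythroid markers ALAS2 and HBM had a row, with a sum of at most 0.04 CPM. No row was named HBB, so its level was not read here. Of 8 genes on the myeloid list 5 had a row. They reached 1394 to 2770 CPM, nearly all of it S100A8, while CSF1R and CD163 were at 0 and LYZ was at 0.51 to 0.71 CPM. S100A8 was detected in 59.1%, 81.0%, 79.9% and 87.3% of kept cells of dogs 1 to 4.

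All 13 mitochondrial genes and 62 of the 68 nuclear genes had enough counts to be tested in each of the 5 comparisons. The other 6 nuclear genes had under 20 UMIs over all dogs, so that COX7A1 had 12, COX4I2 had 3, COX6A2 had 2 and ATP5MD had 1, and NDUFA4L2 and COX7B2 had 0. COX7A1 and COX6A2 are the heart and skeletal muscle forms of complex IV subunits, and COX4I2 is the form best known from lung. A count of 0 over these libraries allows a level of up to 0.0238 CPM, by counting error only. Whether the low counts of these genes, ATP5MD among them, reflect the cells or the gene annotation was not tested. A further 22 dog gene symbols of the same name families, NDUFA1, NDUFA4, UQCRH and SDHD among them, matched no row name. Whether these genes are listed under another name was not resolved. Besides these, no row was named COX6A1, COX6B1, COX6C, COX7A2, COX7B or COX7C, so complex IV was covered only in part.

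The mitochondrial genes supplied 72.0% of the UMIs of the 81 genes. That share leaves out the nuclear subunits with no row of their name, so it is not the share of the whole pathway. MT-CO1, the catalytic subunit of complex IV, was the most abundant, at 4409.9, 4874, 5398 and 3938 CPM in dogs 1 to 4. With MT-CO2 and MT-CO3, the other core subunits of complex IV, it made up 51.2 ± 2.83% (SD, n = 4) of mitochondrial UMIs. The complex V genes MT-ATP6 and MT-ATP8 gave 12.7% and 5.66%, the complex III gene MT-CYB gave 6.96%, and of the complex I genes ND4L gave 9.67%, MT-ND4 gave 3.62%, MT-ND1 gave 2.95%, MT-ND2 gave 2.94%, MT-ND5 gave 2.33%, MT-ND6 gave 1.13% and MT-ND3 gave 0.79%. These are shares of captured 5′ ends, not lengths. MT-ATP8 overlaps MT-ATP6, ND4L overlaps MT-ND4, and nuclear copies of mitochondrial DNA exist, so the split between those neighbours is uncertain.

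Every 1 of the 13 mitochondrial genes was lowest in dog 4. MT-ATP8 showed the widest spread, at 1306, 1447, 1700 and 697 CPM, and the coefficient of variation over the dogs had a median of 17.2% for mitochondrial genes (7.98 to 33.1%). For the 62 tested nuclear genes that median was 5.29%. The exception among them was ATP5F1E, the small epsilon subunit of ATP synthase, at 60.9, 34.4, 46.5 and 34.5 CPM, a coefficient of variation of 28.5%. Dogs 1 and 3 stood above dogs 2 and 4 for this gene.

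The nuclear genes had a median level of 109.7 CPM (11.8 to 562 CPM for the 62 that were tested). The 5 highest were ATP5F1B, the catalytic beta subunit of ATP synthase, at 540, 563, 558 and 586 CPM in dogs 1 to 4, COX8A at 493, 555, 527 and 591 CPM, COX5B at 391, 408, 393 and 399 CPM, COX4I1 at 374, 383, 383 and 366 CPM, and the complex I subunit NDUFS5 at 295, 292, 300 and 298 CPM. COX8A, COX5B and COX4I1 are subunits of complex IV. The values of ATP5F1B and COX8A overlapped between dogs, and each gene after COX8A lay below the one before it in all dogs without overlap.

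Over all kept cells, mitochondrial genes took 2.32%, 2.31%, 2.49% and 1.77% of UMIs in dogs 1 to 4 (mean 2.22 ± 0.31%, SD, n = 4). Nuclear oxidative phosphorylation genes took 0.824%, 0.874%, 0.857% and 0.891% (mean 0.861 ± 0.03%). Dog 4 was the lowest for the mitochondrial part and the highest for the nuclear part. Without the 61 ribosomal protein genes in the total, the means were 2.87% and 1.11%.

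Both shares moved with the number of UMIs in the cell, in different ways. In cells of 500 to 2000, 2000 to 4000, 4000 to 6000 and 6000 to 20000 UMIs the mitochondrial share averaged 4.36%, 2.29%, 1.91% and 2.23%, a fall followed by a rise in every dog. The nuclear share averaged 0.627%, 0.834%, 0.861% and 0.956% in the same bins and was higher in each deeper bin in every dog. Across single cells the correlation of the mitochondrial with the nuclear share lay between -0.26 and -0.41 in the 4 dogs over all kept cells, and between -0.08 and -0.16 in cells of 3000 to 5000 UMIs. These are descriptions over cells of 1 library. For these correlations the nuclear share was taken over the UMIs outside the mitochondrial genes, and the mitochondrial share over all UMIs.

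**Figure D1:**
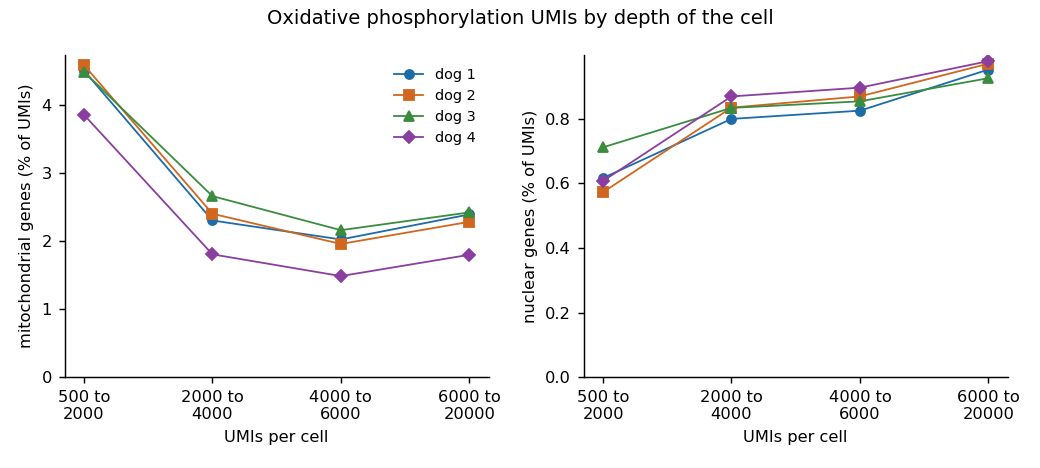
Share of a cell class's UMIs from the 13 mitochondrial genes (left, percent) and from the 68 nuclear oxidative phosphorylation genes (right, percent) in 4 bins of UMIs per cell; each line is 1 dog. The mitochondrial share is highest in cells of 500 to 2000 UMIs (mean 4.36%), and the nuclear share is highest in cells of 6000 to 20000 UMIs (mean 0.956%).

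The mitochondrial share was also a limit on which cells were kept. The 1197 cells over 10% had medians of 787.5 to 959 UMIs, a mitochondrial share of 16.4 ± 0.98% (SD, n = 4) and a nuclear share of 0.455 ± 0.05% of their UMIs. The 274 cells just inside the limit, at 9 to 10%, had nuclear genes at 0.568% of their other UMIs, and the 213 cells just outside it, up to 11%, had 0.522%, against 0.881% in all kept cells. A T cell receptor beta chain was recorded for 28.0% of cells over the limit and for 75.3% of kept cells.

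Over all kept cells, the comparison by MKI67 had the most oxidative phosphorylation genes called of the 5. Of all genes, 41% were called there by MKI67, against 27.1 to 32.7% in the other comparisons. Among cells of 3000 to 5000 UMIs MKI67 had 3 calls, fewer than the 8 by coreceptor, 10 by GZMB and 24 by CCR7. In those cells 1.29% of all genes were called higher and 1.91% lower by MKI67, and 12.3% and 12.6% by GZMB. By CCR7 13.8% and 15% were called there, and by coreceptor 1138 and 1142 of 9266 genes. MKI67, which encodes the proliferation antigen Ki-67, was detected in 768 cells, 139 to 283 per dog. Mitochondrial genes took 3.36%, 3.23%, 3.37% and 2.78% of UMIs in these cells of dogs 1 to 4 and 2.28%, 2.25%, 2.46% and 1.73% in the other cells. Each dog's MKI67-positive share was above every dog's negative share, with a mean log2 ratio of 0.56 ± 0.10 (SD, n = 4). Nuclear genes took 1.17%, 1.20%, 1.18% and 1.18% against 0.809%, 0.853%, 0.845% and 0.879%, again without overlap, with a log2 ratio of 0.48 ± 0.04. The exact two-sided sign-flip permutation test gave p = 0.125 for both, the smallest p that 4 dogs allow. For the smallest class, dog 3 with 139 cells, the 95% Wilson interval of the mitochondrial share was 3.34 to 3.40%, which covers counting error only.

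Gene by gene, 44 of the 62 tested nuclear genes rose in MKI67-positive cells and 1 fell, with a median log2 fold change of 0.39, and 10 of the 13 mitochondrial genes rose and 0 fell, with a median of 0.33 (edgeR quasi-likelihood test on UMI sums per dog, the dog as a block, adjusted p under 0.05 over all genes). Of all 10566 genes tested 41% were called, 20.2% upward and 20.8% downward, with a median of -0.05. Of the nuclear genes tested, complex IV had 5 of 5 higher, complex III 5 of 6, complex II 3 of 3, complex I 23 of 28 and complex V 6 of 8. Of the 8 complex I assembly factors NDUFAF1 passed, and of the 3 complex II assembly factors SDHAF2 passed. ATP5IF1, the inhibitor of ATP synthase, had a log2 fold change of 0.08 and was not called (edgeR adjusted p = 0.36).

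The largest nuclear difference was that of NDUFB6, an accessory subunit of complex I. It stood at 110.7, 116, 95.04 and 111.8 CPM in MKI67-positive cells of dogs 1 to 4 and at 44.3, 43.5, 43.7 and 45.9 CPM in the others, so that the classes were far apart in all dogs (log2 fold change 1.30, SE 0.083, edgeR adjusted p = 4.83e-11). COX5B, a structural subunit of complex IV, stood at 723, 749, 713 and 668 CPM against 394, 386, 393 and 379 CPM, likewise without overlap (0.88, SE 0.054, edgeR adjusted p = 1.98e-11). Log2 fold changes of other complex I subunits were 0.996 for NDUFS8, 0.92 for NDUFA8, 0.82 for NDUFV2 and 0.78 for NDUFS6. ATP5F1C, the gamma subunit of ATP synthase, and UQCRB, a complex III subunit, both reached 0.77. ATP5F1E was the 1 gene that fell, from 64.2, 35.1, 48.6 and 34.7 CPM in negative cells to 48.2, 21.9, 25.8 and 12.9 CPM in positive cells (log2 fold change -0.77, SE 0.134, edgeR adjusted p = 8.93e-05). It was lower in each dog, although the classes overlapped between dogs.

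Among the mitochondrial genes the difference was uneven. MT-CO3 stood at 5553, 6649, 6595 and 4675 CPM in MKI67-positive cells and at 3480, 4107, 4428 and 2630 CPM in the others, without overlap (0.69, SE 0.050, edgeR adjusted p = 2.91e-10). MT-CYB followed at 0.65, MT-CO1 at 0.62, MT-CO2 at 0.59, MT-ND5 at 0.55 and ND4L at 0.53. Smaller increases were called for MT-ND4 and MT-ATP6 (both 0.33), MT-ATP8 (0.32) and MT-ND1 (0.17). MT-ND2, MT-ND3 and MT-ND6 were not called, with -0.09, -0.01 and 0.08.

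The classes also differed in depth, in the limit on cells and in marker genes, and the part of these in the result was tested only as far as the following values go. MKI67-positive cells had medians of 5167 to 6679 UMIs against 3584 to 3892. Among cells of 3000 to 5000 UMIs, with 161 positive cells, the log2 ratio was 0.22 for the mitochondrial share and 0.083 for the nuclear share, higher in 4 of 4 dogs for both. Positive cells of this set were still somewhat deeper, at medians of 4111.5 to 4262 against 3885 to 3987 UMIs. There the nuclear genes gave 0 higher and 1 lower call (NDUFA9) and the mitochondrial genes 1 each way, MT-CO1 at 0.26 and MT-ND2 at -0.35, while 1.29% of all genes were called higher and 1.91% lower. UQCRB, MT-ND1, MT-ATP8, MT-ATP6 and MT-ND4, higher over all cells, had negative values among these cells. Among cells of 6000 or more UMIs, with 391 positive cells, the ratios were 0.73 and 0.52 and the calls 43 higher and 1 lower nuclear and 11 higher mitochondrial genes, with 21.5% of all genes called higher and 20.5% lower, and there positive cells were still deeper, at medians of 9251 to 10462 against 6901 to 7029 UMIs. Thinned to 2000 UMIs a cell before classing, with 422 positive cells, the ratios were 0.66 and 0.34. The calls were 15 higher and 2 lower nuclear and 9 higher mitochondrial genes, with 7% of all genes called higher and 7.39% lower. Thinning left out kept cells of fewer than 2000 UMIs, so the set of cells changed as well as the depth.

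The limit of 10% removed 100 of 868 MKI67-positive cells (11.5%) and 3.40% of negative cells, and without it the mitochondrial log2 ratio was 0.71. Ribosomal protein genes took 17.5% of UMIs in positive and 22.7% in negative cells, and with those genes out of the total the nuclear ratio was 0.39. The myeloid list summed to 2796 to 3627 CPM in positive and 1393 to 2707 CPM in negative cells, mainly S100A8 (log2 fold change 0.56). LYZ, with 3.87, rested on 30 UMIs in positive cells, and CSF1R and CD163 were at 0. The part of S100A8 and the other genes of the myeloid list in the result was not tested.

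**Figure D2:**
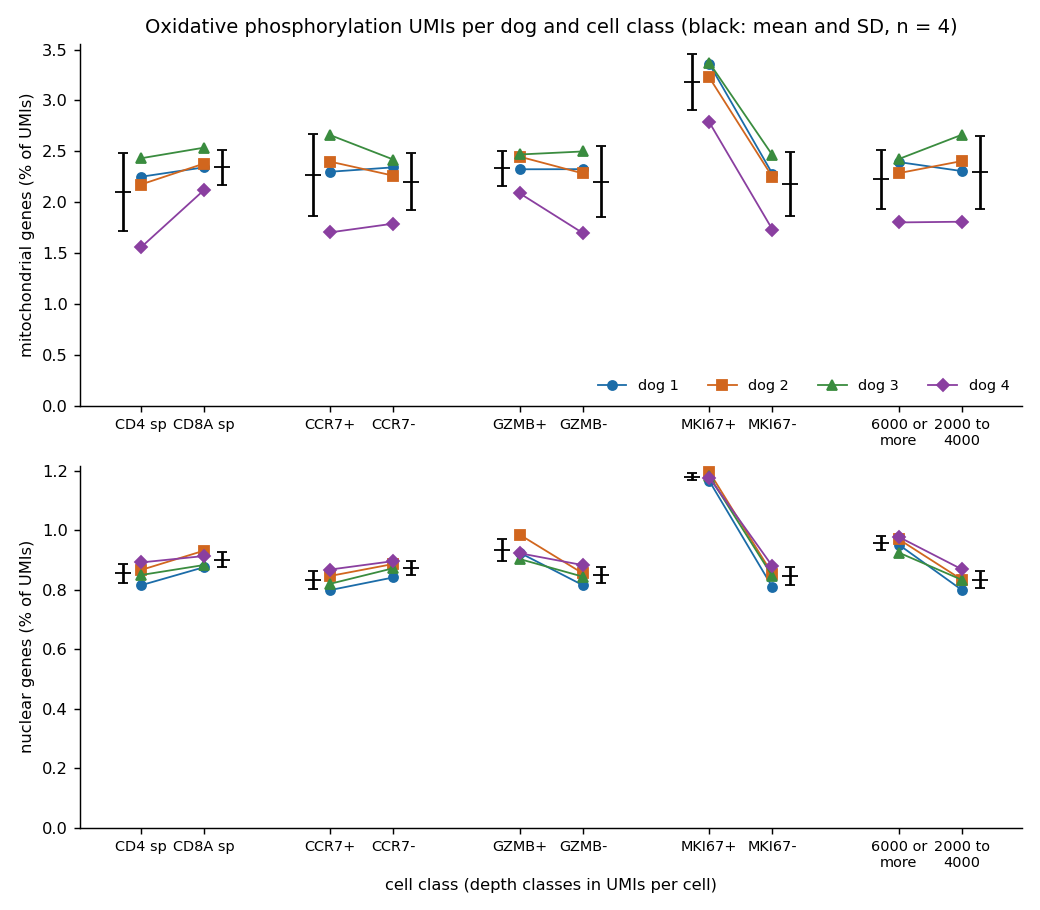
Mitochondrial (top) and nuclear (bottom) oxidative phosphorylation genes as a percent of UMIs in each pair of cell classes; coloured points joined by lines are the 4 dogs, and black marks are means with SD (n = 4). MKI67-positive cells lie above MKI67-negative cells in all 4 dogs for both parts (log2 ratios 0.56 and 0.48).

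CCR7, the lymph node homing receptor of naive and central memory T cells, was detected in 9354 cells. The nuclear share was lower in CCR7-positive cells, at 0.799%, 0.847%, 0.820% and 0.868% against 0.842%, 0.887%, 0.873% and 0.897% in dogs 1 to 4. It was lower in each dog, with overlap between dogs, and the log2 ratio was -0.07 ± 0.02 (exact sign-flip permutation p = 0.125). Ribosomal protein genes took 24.3% of UMIs in positive and 21.6% in negative cells, and with those genes out of the total the nuclear ratio was -0.019. The mitochondrial share was 2.30%, 2.40%, 2.66% and 1.70% against 2.34%, 2.26%, 2.42% and 1.79%, higher in dogs 2 and 3 and lower in dogs 1 and 4 (0.03 ± 0.10, exact permutation p = 0.625). Without the limit on mitochondrial UMIs that ratio was -0.017.

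Single genes moved in both directions. Of nuclear genes 9 of 62 rose and 8 fell in CCR7-positive cells (median log2 fold change -0.02), and of mitochondrial genes 8 of 13 rose and 0 fell (median 0.12), where 32.1% of all genes were called, 15.3% upward and 16.7% downward, around a median of 0.01. Scaled by total UMIs alone rather than by the trimmed mean of M values (TMM), the nuclear split was 3 higher and 20 lower and the mitochondrial one 4 higher and 1 lower, with 10.4% of all genes higher and 22.8% lower. The share of nuclear genes called was below that of all genes in the TMM-scaled fit, and the share of mitochondrial genes called higher was above it. With all dogs 25 genes of both parts were called, and there were 14 calls without dog 1, 8 without dog 2, 12 without dog 3 and 26 without dog 4, where 25.4%, 19.9%, 20.3% and 33.7% of all genes were called. The dog as a block mattered here too, since without the block 0 genes of either part were called by edgeR, and 5 nuclear and 0 mitochondrial genes had an unadjusted p under 0.05, while 0.93% of all genes were called. DESeq2, which kept the block, called 2 nuclear and 6 mitochondrial genes higher and 1 nuclear gene lower. It was run without edgeR's low-count filter, on 14943 genes rather than 10433, of which 5.65% were higher and 7.66% lower. DESeq2's own default filter on mean counts was left on, and genes given no adjusted p counted as not called.

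ATP5F1E had the largest nuclear increase, at 74.9, 39.6, 56.9 and 38.8 CPM in CCR7-positive cells against 53.4, 31.0, 42.5 and 32.1 CPM (log2 fold change 0.39, SE 0.048, edgeR adjusted p = 0.000292). It was higher in each dog, and the dogs' differences in level made the classes overlap. Of the 3 complex II assembly factors SDHAF4 (0.25) and SDHAF1 (0.15) rose, as did the catalytic complex II subunit SDHA (0.11), the ATP synthase stalk subunit ATP5PF (0.16), the complex I subunits NDUFV3 (0.15) and NDUFS5 (0.11) and the complex I assembly factor NDUFAF8 (0.13). Apart from COX8A, the genes that fell belonged to complexes I and III or to complex I assembly, with NDUFAF2 at -0.25, NDUFB6 at -0.24, UQCRC2 and NDUFS7 at -0.13, NDUFB3 and NDUFB4 at -0.12 and UQCRC1 at -0.11.

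Complex III's MT-CYB led the mitochondrial genes, at 1969, 1847, 2029 and 1113 CPM in CCR7-positive cells against 1732, 1461, 1561 and 1079 CPM (0.24, SE 0.048, edgeR adjusted p = 0.00446). Dogs 2 and 3 showed wider gaps than dog 4. The complex I genes MT-ND1 (0.20), MT-ND2 (0.19), MT-ND3 (0.19), MT-ND4 (0.17) and MT-ND5 (0.10) rose, with MT-ATP6 at 0.17 and MT-CO3 at 0.12. MT-CO1 and MT-CO2 were not called, at -0.05 and -0.02, nor were MT-ND6 (-0.02), ND4L (0.11) and MT-ATP8 (0.11).

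The mitochondrial difference varied with the depth of the cells compared. In cells of 3000 to 5000 UMIs 10 mitochondrial genes rose and 0 fell (median 0.23), with 13.8% of all genes called higher and 15% lower, and the share was higher in 4 of 4 dogs, with a log2 ratio of 0.13. In cells of 6000 or more UMIs 1 rose (MT-ND2) and 1 fell (MT-CO1), with 6.94% of all genes called higher and 7.06% lower, and the share was lower in 4 of 4 dogs, with a ratio of -0.088. The difference between these depths was not tested. S100A8 was lower in CCR7-positive cells (log2 fold change -0.67), and its part in the result was not tested.

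**Figure D3:**
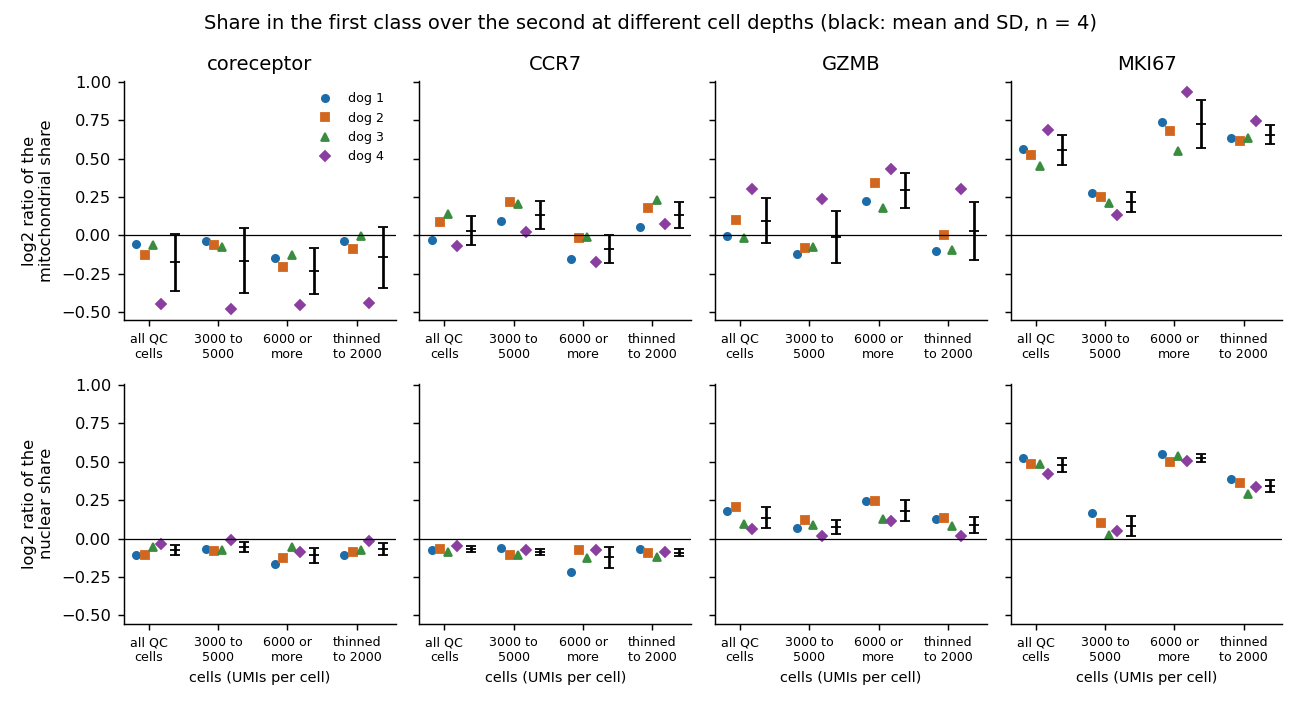
Log2 ratio of the mitochondrial share (top) and the nuclear share (bottom) between the cell classes of each comparison, in all kept cells and in subsets by UMIs per cell; coloured points are the 4 dogs, and black marks are means with SD (n = 4). The CCR7 ratio of the mitochondrial share is 0.13 in cells of 3000 to 5000 UMIs and -0.088 in cells of 6000 or more UMIs, and the MKI67 ratios are smallest in cells of 3000 to 5000 UMIs.

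Within coreceptor classes the CCR7 contrast of mitochondrial genes was seen in both. In CD4 sp cells 10 of 13 rose and 0 fell, with a median of 0.15, and 10.1% of all genes were called higher and 13% lower. In CD8A sp cells, with 772 CCR7-positive cells, 10 rose and 0 fell, with a median of 0.36, and 8.31% of all genes were called higher and 8.5% lower. The nuclear genes gave 4 higher and 5 lower calls in CD4 sp cells and 3 higher and 1 lower in CD8A sp cells. Mitochondrial shares averaged 2.17 ± 0.37% and 2.06 ± 0.37% (SD, n = 4) in CCR7-positive and CCR7-negative CD4 sp cells, and 2.54 ± 0.35% and 2.30 ± 0.14% in the CD8A sp cells.

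A test of whether the CCR7 difference itself differed between CD4 sp and CD8A sp cells called 246 of 9992 genes (2.46%), and 0 oxidative phosphorylation genes by edgeR, with 5 nuclear genes and 1 mitochondrial gene at an unadjusted p under 0.05. The mitochondrial gene was MT-ND1, with a difference of -0.20 on the log2 scale (edgeR adjusted p = 0.352). COX7A2L, which is known to help join complexes III and IV into supercomplexes, had 0.30 (edgeR adjusted p = 0.121). Without dog 4 this test called 1 member, MT-ATP8, named here after its value was seen. The share of all genes called in that fit is not given here, so nothing is read from this call.

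GZMB encodes granzyme B, a protease of cytotoxic granules, and was detected in 4997 cells. Nuclear genes took 0.925%, 0.985%, 0.903% and 0.923% of UMIs in these cells of dogs 1 to 4 and 0.815%, 0.855%, 0.844% and 0.883% in the others. The classes did not overlap, and the log2 ratio was 0.14 ± 0.07, above 0 in 4 of 4 dogs (exact sign-flip permutation p = 0.125). It stayed above 0 in all dogs but was 0.075 in cells of 3000 to 5000 UMIs, 0.079 without ribosomal protein genes in the total, 0.090 in thinned cells and 0.092 in CD8A sp cells. S100A8 was lower in GZMB-positive cells (log2 fold change -0.23), and its part in the result was not tested. The mitochondrial share was 2.32%, 2.45%, 2.47% and 2.09% against 2.32%, 2.28%, 2.498% and 1.70%, with dogs 2 and 4 higher and dogs 1 and 3 almost level (0.10 ± 0.15, exact permutation p = 0.5).

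In GZMB-positive cells 17 of 62 nuclear genes rose and 0 fell by edgeR (27 at an unadjusted p under 0.05 in either direction), with a median log2 fold change of 0.10. Of all genes 28.8% were called, 14.4% upward and 14.4% downward, around a median of -0.02. Of the 17, 11 were complex I subunits, 3 complex IV, and 1 each complex II, III and V, and 0 of the 11 assembly factors were called. Of nuclear genes 15 rose without dog 1, 4 without dog 2, 5 without dog 3, and 8 rose and 1 fell without dog 4, where 26.7%, 19.8%, 18.2% and 22.6% of all genes were called. Without the dog as a block 8 rose and 0 fell, 0 mitochondrial genes were called (0 at an unadjusted p under 0.05), and 17.2% of all genes were called.

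The largest increase was that of COX7A2L. It stood at 148, 140, 150 and 156 CPM in GZMB-positive cells against 99.7, 105, 107 and 106 CPM, without overlap (log2 fold change 0.51, SE 0.052, edgeR adjusted p = 0.000235). NDUFS8, an iron-sulfur subunit of complex I, stood at 120.1, 147, 127 and 131 CPM against 93.1, 100.2, 97.3 and 98.7 CPM, also apart in all dogs (0.43, SE 0.054, edgeR adjusted p = 0.000684). Further complex I subunits were NDUFB6 (0.34), NDUFB3 (0.32), NDUFA8 (0.31) and NDUFS3 (0.25). ATP5MC1, which encodes the c-ring subunit of ATP synthase, reached 0.24, and SDHC, a membrane anchor of complex II, reached 0.22.

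Of the mitochondrial genes MT-CO1 rose, at 5330, 5495, 5648 and 4761 CPM against 4481, 4755, 5465 and 3663 CPM (0.22, SE 0.061, edgeR adjusted p = 0.0269), with overlap between dogs. MT-ND2 fell by 0.25 on the log2 scale, lower in dogs 1 to 3 and higher in dog 4 (SE 0.077, edgeR adjusted p = 0.0385). The median of the 13 mitochondrial genes was -0.02, and 1 call each way was below the 14.4% of all genes called each way. Without dog 1 or dog 2 they gave 0 calls by edgeR, where 26.7% and 19.8% of all genes were called. They gave 1 higher call without dog 3 (18.2% of all genes called), and 1 higher and 3 lower without dog 4 (22.6%). Without the mitochondrial limit 0 rose and 2 fell, with 1585 of 10578 genes higher and 1494 lower. Of the GZMB-positive cells 3931 were CD8A sp. Within CD8A sp cells 6 nuclear genes rose and 0 fell, 0 mitochondrial genes rose and 9 fell by edgeR, and the median mitochondrial log2 fold change was -0.27, with 9.24% of all genes called higher and 8.84% lower. There MT-ND3 stood at -0.46, MT-ND2 at -0.36, MT-CYB at -0.29 and MT-CO1 at -0.013, and the log2 ratio of the mitochondrial share was -0.13. Among cells of 3000 to 5000 UMIs that ratio was -0.010, higher in 1 of 4 dogs, with 6 nuclear genes higher and 0 lower and 0 mitochondrial genes higher and 4 lower, and with 12.3% of all genes called higher and 12.6% lower. In thinned cells it was 0.026, with 5 nuclear genes higher and 0 lower and 0 mitochondrial genes called by edgeR (5 at an unadjusted p under 0.05), and with 11.4% of all genes called higher and 11.4% lower. In thinned cells and those of 3000 to 5000 UMIs, the share of nuclear genes called higher was below that of all genes. For CD8A sp cells it was near that of all genes. Among cells of 6000 or more UMIs the log2 ratio of the mitochondrial share was 0.29, higher in 4 of 4 dogs. There 12 nuclear and 6 mitochondrial genes were higher, with 7.99% of all genes called higher and 6.74% lower. In that set GZMB-positive cells were still deeper, at medians of 7554 to 8114.5 against 6861.5 to 7152.5 UMIs.

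**Figure D4:**
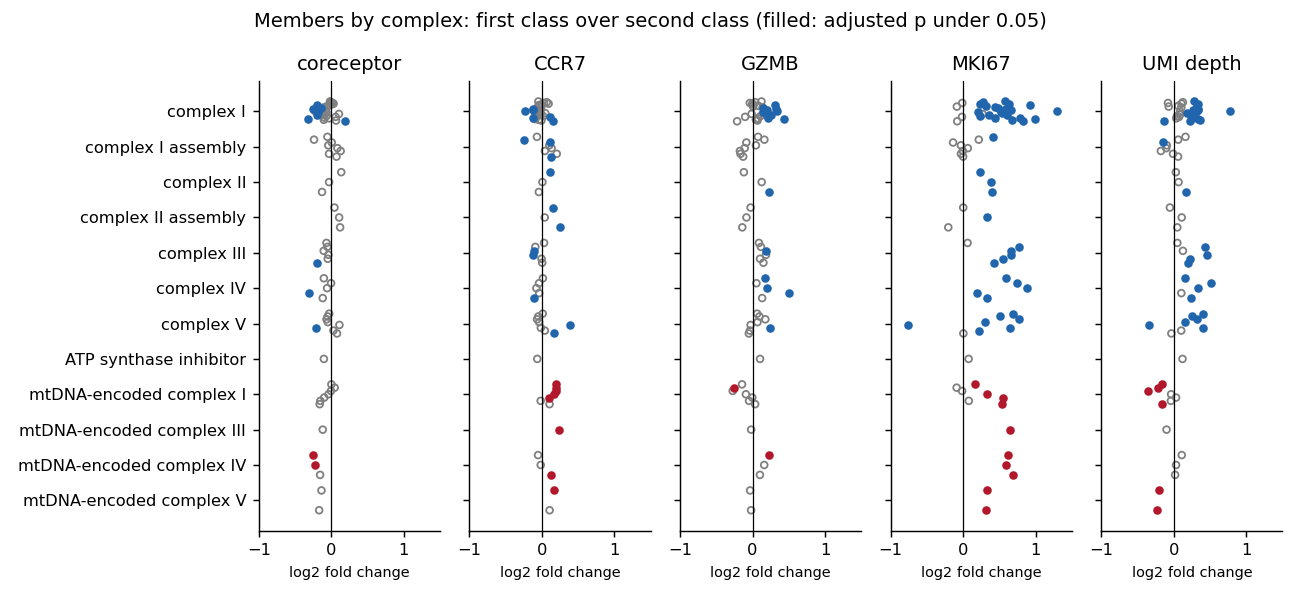
Log2 fold change of each tested gene, grouped by complex and genome (vertical axis), in the 5 comparisons (panels); filled points have an adjusted p under 0.05. In MKI67-positive cells 23 of 28 tested nuclear complex I genes and 5 of 5 tested nuclear complex IV genes are filled and higher, and the assembly factors scatter around 0.

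Between coreceptor classes, 13247 CD4 sp and 6427 CD8A sp cells were compared. The nuclear share was 0.815%, 0.866%, 0.850% and 0.892% in CD4 sp cells and 0.876%, 0.932%, 0.883% and 0.914% in CD8A sp cells of dogs 1 to 4. It was lower in CD4 sp cells of each dog (log2 ratio -0.07 ± 0.04, exact sign-flip permutation p = 0.125), with overlap between dogs. The mitochondrial share was 2.25%, 2.17%, 2.43% and 1.55% against 2.34%, 2.38%, 2.54% and 2.12%, again lower in each dog, and the log2 ratio of dog 4, -0.45, stood apart from -0.06, -0.13 and -0.06 in dogs 1 to 3 (mean -0.17 ± 0.18, exact permutation p = 0.125). Without ribosomal protein genes in the total the nuclear ratio was -0.041. S100A8 was higher in CD4 sp cells (log2 fold change 0.46), and its part in the result was not tested. Cells with both coreceptors (725) had means of 2.18% and 0.885%, and cells with neither (11510) had 2.30% and 0.845%.

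By gene, 1 of 62 nuclear genes was higher and 9 were lower in CD4 sp cells (median log2 fold change -0.05), and 0 of 13 mitochondrial genes were higher and 2 lower by edgeR (4 at an unadjusted p under 0.05, median -0.14), where 27.1% of all genes were called, 13.6% upward and 13.5% downward, around a median of 0.00. Called in either direction, the shares of members were below that background for both parts. The lower calls alone, 9 of 62 and 2 of 13, were near the 13.5% of all genes called lower. With all dogs 12 genes were called, and there were 11 calls without dog 1, 3 without dog 2, 3 without dog 3 and 9 without dog 4, where 24.6%, 18.5%, 18.9% and 21.3% of all genes were called. The mitochondrial median was -0.01 without dog 4. Without the dog as a block 5 were called, all nuclear and lower, with 14.1% of all genes called.

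These classes share cells with the GZMB and CCR7 classes. NDUFS8 stood at 92.5, 98.7, 95.4 and 101.2 CPM in CD4 sp cells against 110.5, 128, 119 and 125 CPM in CD8A sp cells, without overlap (log2 fold change -0.32, SE 0.045, edgeR adjusted p = 0.00136). COX7A2L stood at 100.8, 109, 110.5 and 109 CPM against 126, 131, 137 and 139 CPM, also without overlap (-0.31, SE 0.043, edgeR adjusted p = 0.00119). NDUFB3 (-0.25), ATP5MC1 (-0.22), NDUFA8 (-0.20), the complex III subunit UQCRQ (-0.19), NDUFS3 (-0.19) and NDUFB7 (-0.19) were lower as well, and NDUFV3 was higher (0.20).

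MT-CO1 stood at 4328, 4494, 5272 and 3328 CPM in CD4 sp cells against 5046, 5133, 5631 and 4737 CPM (-0.25, edgeR adjusted p = 0.0193), and MT-CO2 was lower by -0.22 (edgeR adjusted p = 0.0264). Both were lower in 4 of 4 dogs, and without dog 4 they stood at -0.16 and -0.13 and were called. Neither was called without dog 2, and MT-CO2 was not called without dog 3. Among cells with no CCR7, GZMB or MKI67 UMI, 0 mitochondrial genes were higher and 9 lower in CD4 sp cells (median -0.26), 0 nuclear genes were higher and 1 lower, with 6.53% of all genes called higher and 5.98% lower. In these cells COX7A2L had a log2 fold change of 0.033, and among cells of 6000 or more UMIs 0.017.

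**Figure D5:**
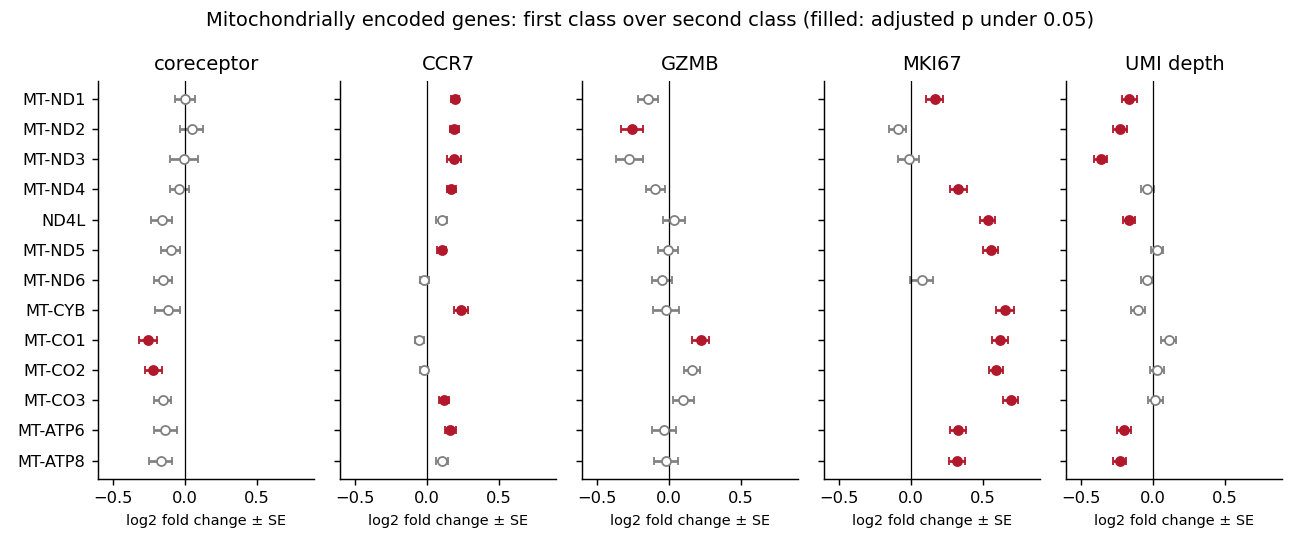
Log2 fold change with SE (horizontal axis) of the 13 mitochondrial genes (vertical axis) in the 5 comparisons (panels); filled points have an adjusted p under 0.05. MT-CO3 (0.69), MT-CYB (0.65) and MT-CO1 (0.62) lead in MKI67-positive cells, and MT-ND3 (-0.36) has the lowest value in the depth panel.

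Depth was compared directly between 3650 cells of 6000 or more UMIs and 12921 cells of 2000 to 4000 UMIs. The nuclear share was 0.952%, 0.970%, 0.925% and 0.978% against 0.799%, 0.834%, 0.833% and 0.869% in dogs 1 to 4, without overlap (log2 ratio 0.20 ± 0.05, exact sign-flip permutation p = 0.125). The mitochondrial share was 2.39%, 2.28%, 2.42% and 1.80% against 2.30%, 2.40%, 2.66% and 1.81%, higher in dog 1 alone (-0.04 ± 0.08, exact permutation p = 0.375). Mitochondrial UMIs per nuclear oxidative phosphorylation UMI were lower in the deeper cells of all dogs, with a log2 ratio of -0.24 ± 0.06.

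In the deeper cells 30 nuclear genes rose and 3 fell (median log2 fold change 0.14), and 0 mitochondrial genes rose and 6 fell by edgeR (median -0.10), where 32.7% of all genes were called, 16.7% upward and 16% downward. NDUFB6 again led, at 68.8, 65.6, 63.6 and 67.3 CPM against 40.3, 37.3, 37.2 and 40.2 CPM, without overlap (0.78, SE 0.053, edgeR adjusted p = 2.68e-06). It was followed by COX5A (0.51), UQCRC2 (0.46), UQCRB (0.44), ATP5F1A and ATP5MC1 (both 0.40), NDUFV1 (0.37) and NDUFA6 (0.34). ATP5F1E (-0.34), NDUFAF3 (-0.15) and NDUFV3 (-0.14) fell.

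The mitochondrial genes lower in deep cells were of complexes I and V. MT-ND3 stood at 193, 139, 174 and 99.4 CPM against 259, 171, 219 and 131 CPM (-0.36, edgeR adjusted p = 0.000126), lower in each dog. MT-ATP8 and MT-ND2 (both -0.23), MT-ATP6 (-0.20), ND4L and MT-ND1 (both -0.16) also fell, and the 3 complex IV genes and MT-CYB were not called. Without the dog as a block 19 nuclear genes rose and 0 mitochondrial genes were called (0 at an unadjusted p under 0.05), with 8.86% of all genes called. S100A8 was higher in the deeper cells (0.57), and its part in the result was not tested.

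Of the isoform families of complex IV and ATP synthase, only COX4I1, COX8A, COX7A2L and ATP5MC1 could be tested. No row was named COX6A1, COX6B1, COX7A2, ATP5MC2 or ATP5MC3. COX4I1 rose in MKI67-positive cells (0.60), GZMB-positive cells (0.18) and deep cells (0.15), with 0.01 in the CCR7 and -0.10 in the coreceptor comparison, where it was not called. COX8A rose in MKI67-positive (0.33) and deep cells (0.24), and it was lower in CCR7-positive cells (-0.11, in 3 of 4 dogs). COX7A2L also rose in MKI67-positive cells (0.19) and had -0.04 in the CCR7 and 0.10 in the depth comparison, uncalled. ATP5MC1 rose in MKI67-positive cells (0.65) and had -0.01 in the CCR7 comparison, uncalled. ATP5IF1 was called in none of the 5 comparisons (log2 fold changes from -0.10 to 0.12).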

How the data were processed

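The deposited matrices hold raw UMI counts per gene and cell, made by the authors from reads aligned to the dog genome with Cell Ranger 5.0.1 (per the submitters' processing notes). Dog 2's gene list named the rows of all 4 matrices, since dog 1's own list has more rows than its matrix. T cell receptor annotations were used only to mark cells with a beta chain. Cells were kept at 500 to 20000 UMIs and at most 10% mitochondrial UMIs, which left 31909 of 33125 barcodes. No doublet caller was run, and cells with 1 beta chain served as an alternative. A share is a list's UMIs over all UMIs of a class.

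UMIs were summed per dog and class and tested with edgeR 4.0.16 in R 4.3.3 (quasi-likelihood test, TMM, filterByExpr, Benjamini-Hochberg over all genes, threshold 0.05). The classes of a dog come from the same library, so the dog was kept as a block. A positive log2 fold change means higher in the class named first. Its SE was derived as the absolute log2 fold change over the square root of the quasi-likelihood F, and was not estimated separately. CPM in comparisons are TMM-scaled, and elsewhere plain. Shares were compared by exact two-sided sign-flip permutation over dogs. Beta-chain, depth, thinning, marker, mitochondrial-limit, scaling, filter, DESeq2 1.42.0 and leave-one-dog-out alternatives were run. On simulated counts, the fit for MKI67 (10582 genes) recovered 18% of 1.25-fold, 50% of 1.5-fold and 90% of 2-fold changes. The simulation used a fixed dispersion that was not estimated from these data, so these rates need not hold for the real fit.

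All genes of mitochondrial DNA are named, and of the nuclear genes, per comparison and direction, the up to 8 with the largest called change that had 1 direction in 4 of 4 dogs, the isoform families and the 5 most abundant. Members and lists were chosen with earlier results of these data known. Coordinates and sequences were not used here, and no promoter motif was searched, since no genome of the files' build was used.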

Additional observations from a re-analysis of the deposited data

Results flagged for a closer look

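Values of single dogs were compared with the other 3 by the gap to the nearest dog over the whole range, for 120 values, of which chance alone would mark about 1 in 20, and 5 were marked. Dog 4 was low for the mitochondrial share of cells of 500 to 2000 UMIs, at 3.86% against 4.49 to 4.59%. Dog 4 was also low for the log2 ratio of mitochondrial per nuclear UMIs between CD4 sp and CD8A sp cells, at -0.41. Dog 1 stood apart for 3 nuclear genes over all kept cells. ATP5F1A was at 216 CPM, NDUFB11 at 134 CPM and NDUFAF3 at 114 CPM in that dog.

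The mitochondrial share of CCR7-positive over CCR7-negative cells had a log2 ratio of 0.13 in cells of 3000 to 5000 UMIs, above 0 in all 4 dogs, and of -0.088 in cells of 6000 or more UMIs, below 0 in all 4 dogs. The difference between these depths was not tested.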

How the results depend on the processing

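The comparisons were repeated with 1 choice changed at a time. The numbers of members called with all dogs were 12 (coreceptor), 25 (CCR7), 19 (GZMB), 55 (MKI67), 39 (depth) and 0 (interaction). Of all genes tested, 27.1%, 32.1%, 28.8%, 41%, 32.7% and 2.46% were called, in the same order. The pairing by dog mattered: without the dog as a block, 5, 0, 8 and 19 members were called for coreceptor, CCR7, GZMB and depth. Without the block 14.1%, 0.93%, 17.2% and 8.86% of all genes were called for these. DESeq2, run on 14943 genes without edgeR's filter on low counts, called 9 for CCR7. Its own default filter on mean counts was left on. Of the 14943 genes 5.65% were higher and 7.66% lower, with genes given no adjusted p counted as not called. Under DESeq2 the all-gene median of the MKI67 comparison was 0.11, against -0.05 over the 10566 genes of the filtered edgeR fit. In edgeR without its low-count filter the median was -0.18. Cells of 3000 to 5000 UMIs gave 10 calls for GZMB and 3 for MKI67. Of all genes, 12.3% were higher and 12.6% lower there for GZMB, and 1.29% and 1.91% for MKI67. Cells thinned to 2000 UMIs gave 5 and 26, with 11.4% each way for GZMB and 7% and 7.39% for MKI67. CD8A sp cells gave 14 for CCR7, with 8.31% of all genes higher and 8.5% lower. Cells of 6000 or more UMIs, an alternative chosen after seeing the data, gave 1 for coreceptor and 12 for CCR7. There 449 of 8439 genes were higher and 350 lower for coreceptor, and 6.94% and 7.06% of genes for CCR7. Leaving out each dog in turn gave 3 to 11, 8 to 26, 4 to 15, 45 to 55, 30 to 38 and 0 to 1 calls in the order above. Of all genes, 18.5 to 24.6% were then called for coreceptor, 19.9 to 33.7% for CCR7 and 18.2 to 26.7% for GZMB. For MKI67, 1694 to 2022 genes were higher and 1629 to 1861 lower, of 10592 to 10712 tested. For depth, 1072 to 1593 were higher and 925 to 1491 lower, of 10065 to 10185. The share of all genes called for the interaction with a dog left out is not given here.

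Log2 ratios of shares moved as follows. The mitochondrial CCR7 ratio was 0.13 in cells of 3000 to 5000 UMIs, in CD8A sp cells and in thinned cells, and -0.088 in cells of 6000 or more UMIs. The nuclear CCR7 ratio was -0.088 in cells of 3000 to 5000 UMIs, -0.092 in thinned cells, -0.12 in cells of 6000 or more UMIs and in CD8A sp cells, and -0.019 without ribosomal protein genes. The mitochondrial GZMB ratio was 0.29 in cells of 6000 or more UMIs, -0.13 in CD8A sp cells, -0.010 in cells of 3000 to 5000 UMIs and 0.026 in thinned cells. The nuclear GZMB ratio was 0.075 in cells of 3000 to 5000 UMIs, 0.079 without ribosomal protein genes and 0.090 in thinned cells. The mitochondrial MKI67 ratio was 0.22 in cells of 3000 to 5000 UMIs, 0.66 in thinned cells, 0.71 without the mitochondrial limit or with at least 2 MKI67 UMIs, and 0.73 in cells of 6000 or more UMIs. The nuclear one was 0.083 in cells of 3000 to 5000 UMIs, 0.34 in thinned cells, 0.39 without ribosomal protein genes and 0.60 with at least 2 MKI67 UMIs. The nuclear coreceptor ratio was -0.035 in cells without CCR7, GZMB and MKI67, and the nuclear depth ratio was 0.25 in cells with 1 beta chain. The overall shares without ribosomal protein genes were 2.87% and 1.11%. The cause was not tested for any of these.

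Leaving out each dog in turn, mitochondrial and nuclear ratios ran from -0.21 to -0.08 and -0.09 to -0.06 for coreceptor, -0.0042 to 0.07 and -0.08 to -0.06 for CCR7, 0.03 to 0.13 and 0.11 to 0.16 for GZMB, 0.51 to 0.59 and 0.46 to 0.50 for MKI67, and -0.07 to -0.01 and 0.18 to 0.21 for depth. The overall shares ran from 2.13 to 2.37% and from 0.851 to 0.874%.

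For single named genes, 1044 of 1350 alternatives kept the direction and the call, 294 lost the call, and 12 turned the direction. The 12 were COX7A2L in the coreceptor comparison (0.017 in cells of 6000 or more UMIs and 0.033 in cells without the other markers), SDHAF1 for CCR7 in CD8A sp cells (-0.047), MT-ATP6 (-0.013), MT-CO3 (-0.063) and MT-ND5 (-0.0027) for CCR7 in cells of 6000 or more UMIs, MT-CO1 for GZMB in CD8A sp cells (-0.013), and, for MKI67 in cells of 3000 to 5000 UMIs, UQCRB (-0.052), MT-ND1 (-0.17), MT-ATP8 (-0.11), MT-ATP6 (-0.10) and MT-ND4 (-0.012). With 4 dogs no share comparison could reach an exact p under 0.125.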

Other observations

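Other genes of the pathway, from lists outside the name rule, were tested in the same fits. Over all genes tested, 20.2% were called higher and 20.8% lower for MKI67, 14.4% each way for GZMB, 15.3% and 16.7% for CCR7, 13.6% and 13.5% for coreceptor, and 16.7% and 16% for depth. Of the electron carriers CYCS, which encodes cytochrome c, and CYC1, cytochrome c1 of complex III, both rose in MKI67-positive cells (log2 fold change 0.37 and 0.71), and 0 rose and 1 fell in CCR7-positive cells (CYC1, -0.14). Of 12 tested genes of the tricarboxylic acid cycle, 6 rose and 0 fell in MKI67-positive cells by edgeR, with SUCLA2 at 1.04, FH at 0.72, SUCLG1 at 0.60 and citrate synthase CS at 0.53. In deep cells 5 rose and 0 fell, in GZMB-positive cells 2 and 0 (CS, 0.24, and SUCLA2, 0.80), in CCR7-positive cells 0 and 1 (CS, -0.17), and by coreceptor 0 and 0. Of 8 tested outer membrane and transport genes, 4 rose and 1 fell in MKI67-positive cells. SLC25A5, an ADP/ATP carrier of dividing cells, was at 1.23 and SLC25A4, the carrier best known from muscle, at -0.34, and in CCR7-positive cells they stood at -0.27 and 0.22. The counts for that list were 5 and 0 in deep cells, 2 and 0 for GZMB, 2 and 3 for CCR7 and 0 and 2 for coreceptor.

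Assembly factors outside the rule (29 tested) gave 7 higher and 4 lower calls for MKI67, 3 and 3 for GZMB, 5 and 2 for CCR7, 3 and 3 for coreceptor and 3 and 2 for depth, which are near or below the shares over all genes. COX20, a chaperone of complex IV, reached 1.19 in MKI67-positive cells. COA6, which helps deliver copper to complex IV, was higher in GZMB-positive cells (0.77) and lower in CD4 sp (-0.73) and CCR7-positive cells (-0.27). UQCC3, an assembly factor of complex III, took the opposite signs, at -0.90, 0.52 and 0.29. Of 16 genes that copy or process mitochondrial DNA and RNA, 2 rose and 3 fell for MKI67, 1 and 1 for GZMB, 3 and 0 for CCR7, 2 and 0 for coreceptor and 1 and 3 for depth. For MKI67 both counts were near or below the shares over all genes, and the median log2 fold change was 0.0007. SLIRP, which binds mitochondrial transcripts, was at 1.27 in MKI67-positive cells, whereas TFAM, the packaging factor of mitochondrial DNA, was at -0.30, and the mitochondrial RNA polymerase POLRMT at -0.48. TFAM was higher in CCR7-positive (0.17) and CD4 sp cells (0.19) and lower in GZMB-positive cells (-0.18).

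Of 8 tested regulators, 0 rose and 2 fell in MKI67-positive cells by edgeR, MYC at -1.11 and PPRC1, a coactivator of nuclear respiratory genes, at -0.86, a count of lower genes near the share over all genes. The counts were 0 and 2 for GZMB, 1 and 1 for CCR7, 2 and 0 for coreceptor and 0 and 1 for depth. MYC was higher in CCR7-positive (0.48) and CD4 sp cells (0.70) and lower in GZMB-positive cells (-0.96).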
